A study of Mus musculus with 12 samples.

Results

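A group of 8 genes of the path from neural stem cell to neuron was followed through mouse forebrain development: Eomes, Neurog1, Neurog2, Neurod1, Neurod2, Neurod6, Nhlh1 and Insm1. They were chosen by name as genes of intermediate progenitors and proneural factors, with earlier results of these data known. All 8 are among the 12158 genes of the authors' expression table. The table holds 44 RNA libraries of dissected forebrain from C57BL/6N mice: 8 of e12.5, named by embryonic day, 9 of e14.5, 10 of e17.5, 11 of the day of birth (P0) and 6 of adults older than postnatal day 56. The animals were Chd8+/del5 heterozygotes, with a germline mutation in 1 copy of the chromatin remodeller gene Chd8, and wild-type littermates. No label states which library came from which genotype, so each stage below holds both genotypes together, and the 2 genotypes were not compared.

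In the embryonic cortex, radial glia are the stem cells of the ventricular zone. Proneural transcription factors of the basic helix-loop-helix (bHLH) type, with Neurog1 and Neurog2 at the head in dorsal forebrain, switch on neuronal genes and Notch ligands in cells that leave the stem cell state. Many of these cells become intermediate progenitors, which express Eomes (also called Tbr2), divide in the subventricular zone and give rise to glutamatergic neurons, and which pass through a state with Neurod1, while Neurod2 and Neurod6 belong to the differentiating and mature neurons that follow. bHLH factors bind a short DNA element, the E-box, written CANNTG.

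The values are the authors' log2 RPKM, reads scaled by gene length and library size on a log2 scale, on which a difference of 1 is a factor of 2. Levels are given as the lowest, median and highest library of a stage. A gene is called higher or lower at a stage when the ranges of the libraries of the 2 stages do not overlap. There is no p-value, because libraries of mixed genotype are not replicates of 1 group, and a range covers only the spread between libraries. In bulk tissue, fewer cells of a type and less RNA per cell cannot be told apart. The number of a library is its place among the columns of that stage and carries no meaning.

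Some libraries stand apart. Adult library 1 had a mean of 7.13 log2 RPKM over the 5 markers of new neurons, against 4.65 to 4.92 in the other 5 adult libraries, and a mean of 4.73 over the 8 radial glia markers, against 3.46 to 3.97. Its oligodendrocyte markers were at 7.06, against 7.63 to 8.34. The e17.5 library 6 had the lowest excitatory neuron markers of its stage, 5.03 log2 RPKM, where the other 9 lay between 5.27 and 5.53, and the highest markers of ventral progenitors and interneurons, 5.08. Calls of members that rest on either are given with and without it. The ratios between members and the nearest profiles below include both libraries. All 8 radial glia markers and all 5 new neuron markers are in the table, and the median radial glia mean was 3.81 in adult libraries and 6.63 in those of e12.5. Chd8 itself ranged between 3.08 and 4.96 log2 RPKM over all libraries. Sequencing was single-end with 50 bp reads for the 4 later stages and paired-end with 100 bp reads for e12.5, and stage and read type cannot be told apart in the difference of e14.5 from e12.5.

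Promoters are shown for 4 members, Neurod2 and Neurod6, which were both called higher at e14.5, and Neurog1 and Nhlh1, which were both called lower at e14.5 and at e17.5. The windows run from 250 bases before the annotated start to 50 bases after it, from RefSeq on build GRCm38.p6, and 7 of the 8 members have one. Insm1 has no entry in the table. Capitals mark each E-box, CANNTG, a pattern that reads the same on both strands. All 4 genes lie on the minus strand and are written 5′ to 3′ along it, at chr11:98329596-98329895 for Neurod2, chr6:55681214-55681513 for Neurod6, chr13:56252131-56252430 for Neurog1 and chr1:172057547-172057846 for Nhlh1.
Neurod2: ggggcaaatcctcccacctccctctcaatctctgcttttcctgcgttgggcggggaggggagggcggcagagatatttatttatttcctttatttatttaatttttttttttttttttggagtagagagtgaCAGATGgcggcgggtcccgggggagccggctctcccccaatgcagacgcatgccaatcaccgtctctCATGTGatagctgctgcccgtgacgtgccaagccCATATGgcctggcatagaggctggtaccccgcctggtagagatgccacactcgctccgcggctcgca
Neurod6: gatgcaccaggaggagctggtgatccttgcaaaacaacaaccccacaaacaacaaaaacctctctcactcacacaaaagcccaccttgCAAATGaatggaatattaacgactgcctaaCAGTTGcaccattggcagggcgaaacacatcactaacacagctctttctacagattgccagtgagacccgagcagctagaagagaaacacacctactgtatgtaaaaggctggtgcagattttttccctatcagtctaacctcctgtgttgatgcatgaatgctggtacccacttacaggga
Neurog1: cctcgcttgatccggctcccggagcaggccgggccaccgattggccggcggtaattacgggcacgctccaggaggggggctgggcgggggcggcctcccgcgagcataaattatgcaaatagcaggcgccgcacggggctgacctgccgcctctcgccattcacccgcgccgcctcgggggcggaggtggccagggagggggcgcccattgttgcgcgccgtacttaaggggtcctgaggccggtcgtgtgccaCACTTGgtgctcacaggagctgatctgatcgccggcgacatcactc
Nhlh1: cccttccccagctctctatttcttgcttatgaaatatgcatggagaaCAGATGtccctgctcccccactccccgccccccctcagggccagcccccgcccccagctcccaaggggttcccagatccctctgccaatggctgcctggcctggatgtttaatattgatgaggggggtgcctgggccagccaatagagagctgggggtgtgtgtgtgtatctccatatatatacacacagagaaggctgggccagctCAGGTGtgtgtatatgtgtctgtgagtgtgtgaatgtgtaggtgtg
The Neurod2 window holds 3 E-boxes, those of Neurod6 and Nhlh1 hold 2 each, and those of Neurog1 and Neurod1 hold 1 each, while the Eomes and Neurog2 windows hold 0. An E-box of this kind occurs in 72.3% of all 32851 promoter windows. The form CATATG is in the Neurod2 and Neurod1 windows and in 3.91% of all windows. CAGATG or its reverse complement CATCTG is in those of Neurod2 and Nhlh1 and in 17.2% of all windows. These matches describe the letters only, and say nothing of binding.

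The most upstream members are Neurog1 and Neurog2, which start neurogenesis in dorsal progenitors and sit upstream of the other bHLH members. Neurog1 ran from 3.78 to 4.08 at e12.5 (median 3.95), from 1.36 to 2.69 at e14.5 (median 2.37), and from −2.66 to −1.16 at e17.5 with a median of −1.997. At P0 it ran from −4.46 to −1.90 (median −3.18), and in adults from −2.77 to −1.98 with a median of −2.23 log2 RPKM. The ranges of e12.5, e14.5 and e17.5 stood apart from each other, in falling order, while those of e17.5, P0 and adults overlapped. In read terms, the steps in the low values put Neurog1 at 0 to 7 reads in the P0 libraries, with 3 libraries at 0, and at 4 to 10 reads in the adults, so that the order of P0 and adults rests on a handful of reads. Another setting of this fit put the P0 libraries at 0 to 10 reads.

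Marker lists named for other tissues or regions also had medians that fell over the first 3 stages. The 2 olfactory epithelium markers in the table other than Neurog1 are Ebf2 and Lhx2. Their mean was 4.84 to 5.29 at e12.5 (median 5.18), 3.49 to 3.94 at e14.5 (median 3.84) and 2.36 to 3.40 log2 RPKM at e17.5, a median of 2.82, with no overlap. Blood markers had medians of 8.03, 4.19 and −0.27 at these stages, also with no overlap. The 5 diencephalic markers had medians of 3.48, 2.85 and 0.55, with ranges of 2.52 to 3.80, 2.23 to 3.14 and −0.78 to 2.29, and Otx2, the only eye marker in the table, medians of 4.88, 3.33 and 1.87, apart between e12.5 and e14.5. The part of these in the Neurog1 and Nhlh1 values was not tested, nor was it tested whether the marker RNA came from the tissue each list is named for. Of the 5 olfactory epithelium markers, 2, Omp and Gng8, are not in the table used here.

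Neurog2 ran from 5.91 to 6.59 at e12.5 (median 6.35) and from 5.66 to 6.35 at e14.5 with a median of 6.24 log2 RPKM, and these ranges overlapped. It then ran from 3.07 to 4.13 at e17.5 (median 3.86), apart from e14.5, and from 1.08 to 3.26 at P0 with a median of 1.90. The adult libraries other than library 1 were at −3.18 to −1.41, and library 1 at 1.67. Between e12.5 and e14.5 the medians of the 2 neurogenins differed by −1.58 on the log2 scale for Neurog1, with every e14.5 library below every e12.5 library, and by −0.11 for Neurog2, with overlap.

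Eomes, the T-box factor of intermediate progenitors, was highest at e14.5. It ran from 4.66 to 5.40 at e12.5 (median 5.12), from 5.21 to 5.78 at e14.5 (median 5.63), from 4.02 to 5.17 at e17.5 (median 4.38) and from 2.29 to 4.52 at P0 with a median of 3.37 log2 RPKM. Only e14.5 library 2, at 5.21, lay within the e12.5 range, and without it e14.5 was called higher. The adult libraries were at 2.63 in library 1 and at −3.92, −4.20, −1.63, −1.19 and −3.18 in libraries 2 to 6. The adults were not called lower than P0, because library 1 lies inside the P0 range, and were called lower without it, at a difference of −6.55, or without P0 library 5, the lowest of its stage, at −5.90. With all libraries the difference was −5.77.

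Insm1, a zinc-finger factor that promotes the formation of basal progenitors, was also highest at e14.5. It ran from 4.94 to 5.21 at e12.5 (median 5.10), from 5.48 to 5.79 at e14.5 (median 5.65), from 3.96 to 4.93 at e17.5 (median 4.58) and from 3.19 to 4.48 at P0 with a median of 3.91 log2 RPKM. The e14.5 libraries stood above those of e12.5, and the e17.5 libraries below both. In adults it was at 1.63 to 2.06 in 5 libraries and 3.14 in library 1, all under the P0 range, and in each adult library it stood above Eomes and Neurog2. Within the same library, Insm1 minus Eomes had medians of 0.03, 0.09 and 0.14 on the log2 scale at the 3 embryonic stages in order, 0.50 at P0 and 4.08 in adults. The adults ran from 0.51, in library 1, to 6.01, and overlapped with P0, at −0.04 to 1.12.

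Nhlh1, a bHLH factor of cells that have just left the cycle, was called lower at e14.5 and at e17.5, as Neurog1 was, over the stages where the olfactory, diencephalic, eye and blood markers given above were lower too. Its medians were 4.59 at e12.5, 3.73 at e14.5, 1.01 at e17.5, 0.05 at P0 and −1.34 log2 RPKM in adults. The ranges, 4.15 to 4.95 at e12.5, 2.87 to 4.09 at e14.5 and 0.19 to 1.31 at e17.5, stood apart. Those of P0, −0.98 to 1.07, and adults, −1.96 to −0.33, overlapped with their neighbours. The P0 library 3 had the highest value of its stage, 1.07, and the lowest was −0.98. That library also had the highest cerebellar granule neuron markers of P0, 5.12, the highest diencephalic markers, 2.29, the highest olfactory epithelium markers other than Neurog1, 3.67, and the highest eye marker Otx2, 2.96, and their part in the Nhlh1 value was not tested. The cerebellar mean is over the 3 of 5 markers in the table, without Gabra6 and Atoh1.

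Neurod1, which carries progenitors into neuronal differentiation, had the smallest spread of stage medians of the 8 up to P0. They were 4.26, 4.55, 4.63 and 4.75 at e12.5, e14.5, e17.5 and P0, with ranges of 4.15 to 4.49, 4.17 to 4.86, 4.20 to 5.19 and 4.46 to 5.06 that overlapped with their neighbours. The adults, at 2.02 to 3.32 with a median of 2.42 log2 RPKM, were lower than every earlier library. Within a library, Neurod1 minus Eomes had a median of 1.42 log2 units at P0, against −1.12 at e14.5.

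**Figure D1:**
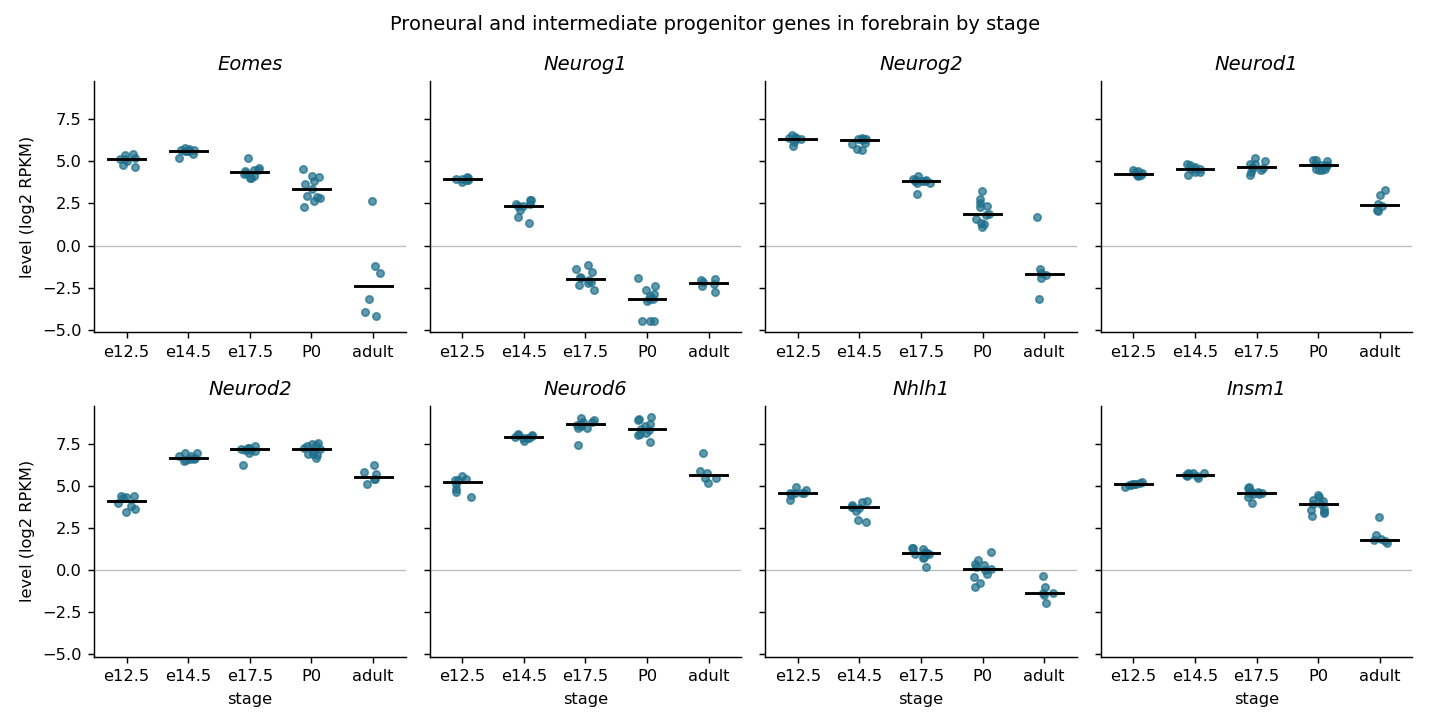
Level of each of the 8 genes (log2 RPKM, vertical axis) in every library by stage (horizontal axis), with points for libraries and black lines for stage medians. Neurog1 and Nhlh1 step down between each of the first 3 stages, Neurod2 and Neurod6 step up after e12.5, and the single high adult point of Eomes and Neurog2 is library 1.

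Neurod2 and Neurod6, the factors of differentiating and mature excitatory neurons, had their lowest stage medians at e12.5. Neurod2 ran from 3.45 to 4.41 at e12.5 (median 4.12), from 6.48 to 6.97 at e14.5 (median 6.64), from 6.23 to 7.37 at e17.5 (median 7.16) and from 6.66 to 7.52 at P0 with a median of 7.22. Neurod6 had medians of 5.22, 7.89, 8.65 and 8.39 log2 RPKM at the same 4 stages, with ranges of 4.34 to 5.57, 7.66 to 8.06, 7.42 to 9.01 and 7.62 to 9.08. It stood above Neurod2 in every library but adult libraries 3 and 5. Adults had 5.10 to 6.22 for Neurod2 and 5.20 to 6.93 for Neurod6, under every P0 library and, for Neurod2, above every e12.5 library. Of all pairs of members, the profiles of these 2 were the nearest, at a root mean square distance of 0.49 log2 units over the 5 stage medians.

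The gap between the start and the end of the cascade differed between the first 4 stages. Within a library, Neurod6 minus Neurog2 had a median of −1.17 at e12.5, 1.68 at e14.5, 4.75 at e17.5, 6.50 at P0 and 7.24 log2 units in adults. The ranges of the first 4 stages did not overlap, with −1.79 to −0.57, 1.31 to 2.35, 4.35 to 5.14 and 5.65 to 6.91, while the adults, at 5.26 to 8.93, spanned the P0 range. Eomes minus Neurog2 had medians of −1.32, −0.58, 0.60 and 1.36 at these stages, with ranges that overlapped between e12.5 and e14.5 and between e17.5 and P0 but not between e14.5 and e17.5, and in adults it had a median of −0.23 with a range of −2.79 to 0.96. The adult values 5.26 and 0.96 are both those of library 1, and no ratio was computed without it. These ratios were chosen after their values were seen.

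Set against the preceding stage, 3 of 8 members were called higher at e14.5 than at e12.5, Neurod6 by 2.67, Neurod2 by 2.52 and Insm1 by 0.55 on the log2 scale, where 23.1% of the 12102 genes kept by a filter on low values were called higher. Neurog1, at a difference of −1.58, and Nhlh1, at −0.86, were the 2 of 8 called lower, where 22.3% of all genes were. The Neurod6 difference exceeded that of 99.1% of all genes, the Neurod2 difference that of 98.8% and the Insm1 difference that of 78.2%. Those of Nhlh1 and Neurog1 exceeded 9.30% and 2.20%.

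At e17.5, 5 of 8 members were called lower than at e14.5, where 12.1% of all genes were: the differences were −4.37 for Neurog1, −2.72 for Nhlh1, −2.38 for Neurog2, −1.25 for Eomes and −1.07 for Insm1. The Eomes ranges overlapped after quantile normalization, at −1.29. 0 members were called higher, where 13.1% of all genes were. The e17.5 library 6 had the lowest Neurod2 and Neurod6 of its stage, 6.23 and 7.42, and without it both were called higher than at e14.5. Depth is unknown for all 10 e17.5 libraries, and its part in the differences of e17.5 from e14.5 and P0 was not tested.

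At P0, 0 members were called lower than at e17.5, where 6.28% of all genes were, and 0 were called higher, where 4.89% were. The medians of Neurog2, Neurog1, Eomes and Nhlh1 differed by −1.96, −1.18, −1.01 and −0.97, with overlapping ranges. Neurog2 was called lower without P0 library 10, its highest at 3.26, or without e17.5 library 6, its lowest at 3.07. Set directly against e14.5, P0 was called lower for 5 of 8 members, Eomes, Neurog1, Neurog2, Nhlh1 and Insm1, where 23.1% of all genes were, and higher for 0, where 22.7% were.

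In adults, 4 of 8 members were called lower than at P0, where 25.2% of all genes were: the differences were −2.77 for Neurod6, −2.34 for Neurod1, −2.09 for Insm1 and −1.67 for Neurod2. 0 members were called higher, where 29.3% of all genes were. Without adult library 1, Eomes and Neurog2 were called lower too, which makes 6 of 8, where 30.0% of all genes were then called lower and 31.2% higher. Neighbouring comparisons share the libraries of the stage between them, so their counts are not independent.

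**Figure D2:**
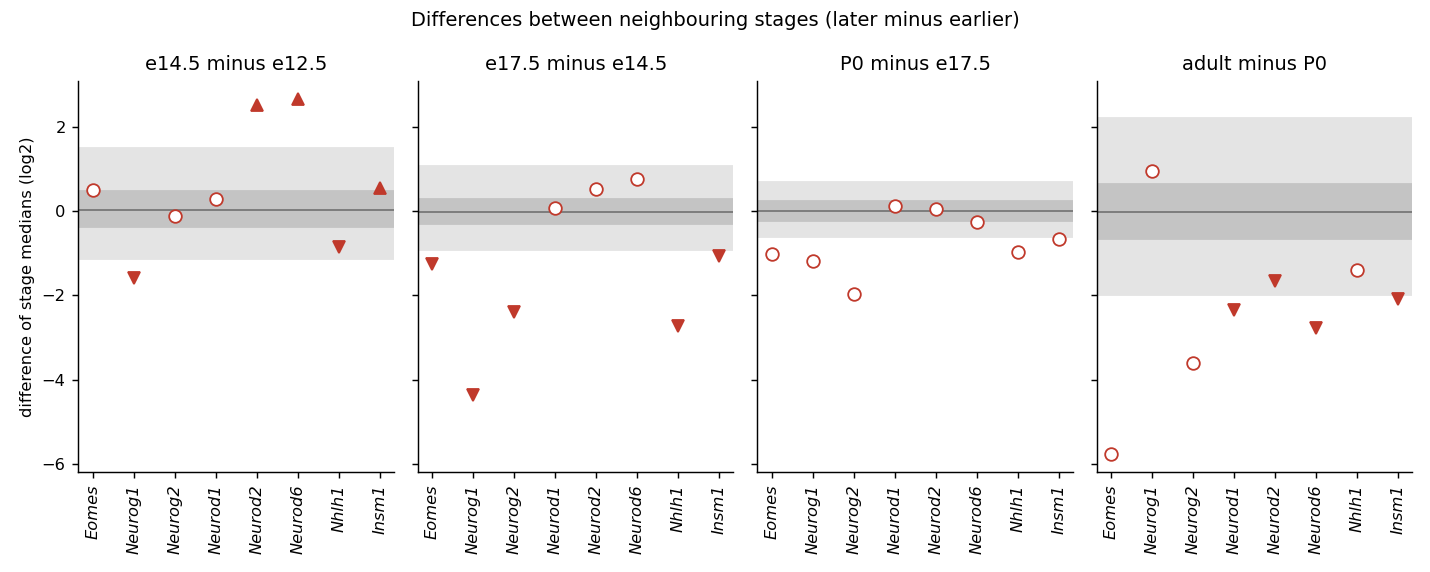
Difference of stage medians (log2, vertical axis) for each member in the 4 comparisons, later minus earlier stage. Filled triangles mark members whose libraries do not overlap between the 2 stages and open circles those that overlap; the grey bands span the 25th to 75th and the 5th to 95th percentile of all genes.

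Within a stage, some members were low or high in the same libraries, and others were not. At e14.5, libraries 2 and 3 had the lowest Neurog1 (1.36 and 1.70), Neurog2 (5.66 and 5.75) and Nhlh1 (2.87 and 2.99) and the highest Neurod2 (6.94 and 6.97). Their radial glia markers were the lowest of the stage, 5.85 and 5.99, their new neuron markers the highest, 8.01 and 7.98, and their blood markers the lowest, 3.21 and 2.70. They were also the lowest in diencephalic markers, 2.23 and 2.58, in Otx2, the eye marker, 3.04 and 2.64, and in olfactory epithelium markers other than Neurog1, 3.49 and 3.54. The part of these in the member values was not tested.

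At P0, Neurog1 had the widest range, 2.56 log2 units at 0 to 7 reads, followed by Eomes with 2.23, Neurog2 with 2.18 and Nhlh1 with 2.05. Libraries 10, 11, 9 and 8 had the 4 highest values of both genes, with 4.52, 4.14, 4.06 and 3.80 for Eomes and 3.26, 2.74, 2.54 and 2.32 for Neurog2, and libraries 5, 6 and 3 had the 3 lowest of both. The 4 high libraries also had the highest radial glia markers, 5.21 to 5.30, against 4.99 to 5.15 in the other 7, and the part of this in the member values was not tested. Neurod1 spread over 0.59 at the same stage.

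**Figure D3:**
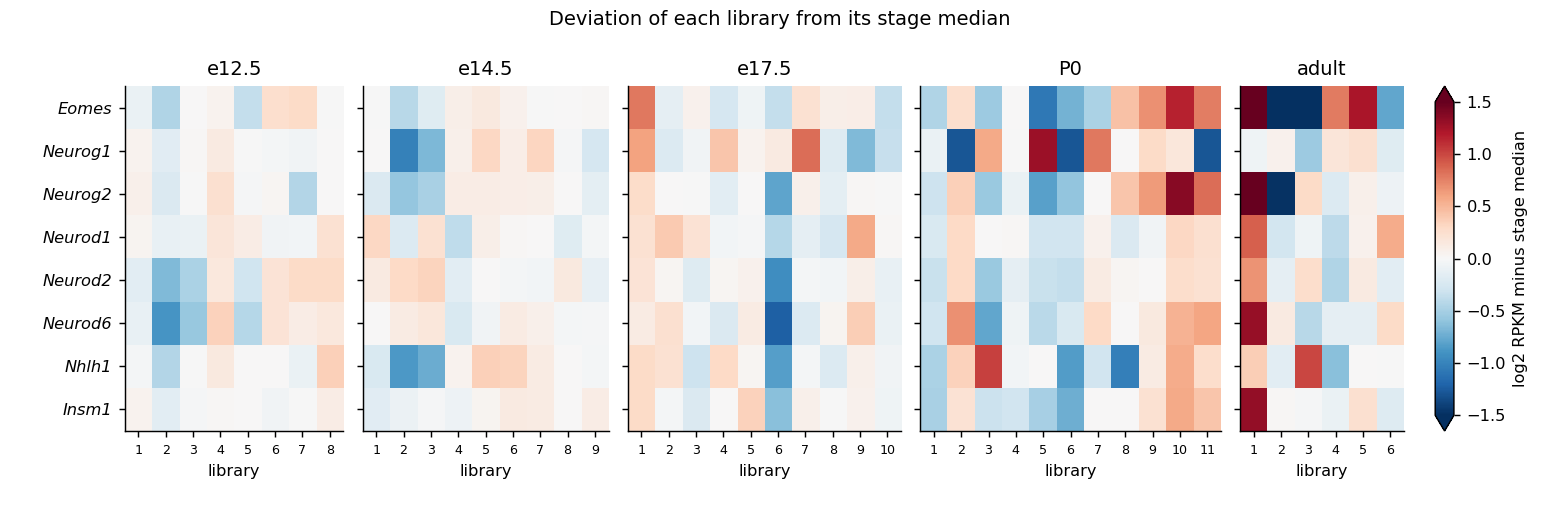
Deviation of each library (columns, by stage) from its stage median for each gene (rows), in log2 RPKM, red for higher and blue for lower. The block of low values in e14.5 libraries 2 and 3 and the low column of e17.5 library 6 each cross several members. So does the high adult library 1. P0 libraries 8 to 11 are high for Eomes and Neurog2, but library 8 has the lowest Nhlh1 of P0.

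Around the members, 15 genes of Notch signalling and of inhibitors of bHLH factors were followed; proneural factors switch on Notch ligands, and Notch signalling holds neighbouring cells in the progenitor state. At e14.5, 7 of 15 were called lower than at e12.5, where 22.3% of all genes were, and 1 higher, where 23.1% were, with a median difference of −0.68 where that of all genes was 0.03. Notch1, the receptor, differed by −1.05, the ligand gene Dll3 by −1.001, the effector Hes5 by −0.98, and Id2, an inhibitor of bHLH factors, was higher by 1.33. At e17.5, 10 of 15 were called lower than at e14.5, where 12.1% of all genes were, and 0 higher, where 13.1% were, with a median difference of −0.83 where that of all genes was −0.03. Mfng, which modifies Notch, was at −1.86, Hes5 at −1.54, Hes1 at −1.495 and Dll3 at −1.34. At P0, 1 of 15 was called lower than at e17.5, Mfng at −0.96, and 0 higher, where 6.28% of all genes were lower and 4.89% higher, with a list median of −0.06. In adults, 5 of 15 were called lower than at P0, where 25.2% of all genes were, Hes6 at −2.39, Dll3 at −2.17 and Dll1 at −1.86 among them. Another 2 were called higher, where 29.3% were, Hey1 by 1.42 and Hes1 by 0.82, and the list median was −0.52 where that of all genes was −0.01.

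A second list held 25 other factors and early targets of the cascade. Both lists were chosen with earlier results of these data known. At e14.5, 8 of 25 were called lower than at e12.5 and 4 higher, where 22.3% of all genes were lower and 23.1% higher, with a list median of 0.04. St18 was at −1.27, Bhlhe22 at 2.55 and the netrin receptor gene Unc5d at 2.47. At e17.5, 10 of 25 were called lower than at e14.5 and 2 higher, where 12.1% of all genes were lower and 13.1% higher, with a list median of −0.22. Btg2, an antiproliferative gene of neurogenic progenitors, differed by −1.90, Nhlh2 by −1.46, Rnd2, a target of Neurog2 in neuronal migration, by −1.35, and Bhlhe22 by 1.33. At P0, 3 of 25 were called lower than at e17.5 and 1 higher, where 6.28% of all genes were lower and 4.89% higher, with a list median of −0.15 and with Sox11 at −0.98, Cbfa2t2 at −0.51, St18 at −0.40 and Rnd2 at 0.41. In adults, 11 of 25 were called lower than at P0 and 1 higher, where 25.2% of all genes were lower and 29.3% higher, with a list median of −0.84. Dcx, a microtubule protein of migrating neurons, was at −5.59, Sox4 at −5.23 and Nhlh2 at −4.48. Without adult library 1 these counts were 15 lower and 1 higher, and 7 lower and 2 higher for the Notch list, where 30.0% of all genes were called lower and 31.2% higher. Pax6 and Hes5 of these lists are radial glia markers too, and Dcx, Elavl4 and Sox11 new neuron markers.

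**Figure D4:**
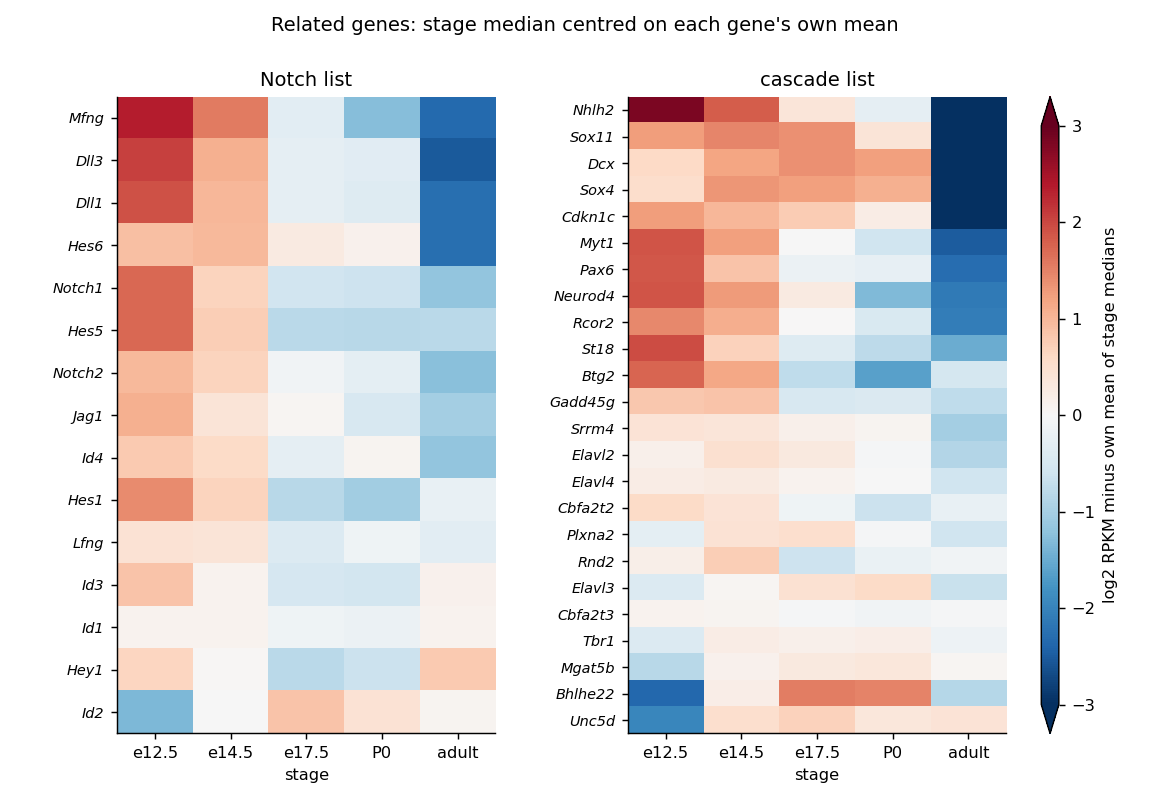
Stage medians of the 15 Notch genes and 24 of the 25 cascade genes (rows), each centred on its own mean over the 5 stages, in log2 RPKM, by stage (columns), red for higher and blue for lower. Genes are sorted by e12.5 minus adult; Id2, Unc5d and Bhlhe22 are low at e12.5, while Dll1, Dll3 and Mfng are high there and low in adults.

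The genes with the nearest profiles over the 5 stage medians, among 12087 genes with a median of at least 0 at 1 stage or more, were found for each member by the root mean square distance between centred profiles. Eomes was nearest to Igfbpl1 (0.29), Tfap2c (0.34) and Veph1 (0.51). Neurog2 was nearest to the mitotic genes Bub1 (0.49), Cdk1 (0.52) and Casc5 (0.56), of which only Cdk1 stayed among its first 3 after quantile normalization. From e12.5 to e14.5 the medians of these 3 went from 4.89 to 3.53, 5.86 to 5.04 and 3.44 to 1.94, while Neurog2 was at 6.35 and 6.24. Nhlh1 was nearest to Col2a1 (0.29), Depdc1b (0.33) and Cdc20 (0.34). Neurog1 had farther neighbours, with Wnt8b at 1.01, Bhlhe23 at 1.04 and Tal2 at 1.11. Its P0 and adult medians, which enter these distances, rest on 0 to 7 and 4 to 10 reads. Neurod1 was nearest to Nkain1 (0.08), Maged2 (0.08) and 2610203C20Rik (0.08), and Insm1 to Vax1 (0.20), Mir17hg (0.23) and Kif26a (0.26). Neurod2 was nearest to B3gat2 (0.19), Nfe2l3 (0.21) and Rlbp1 (0.24), and Neurod6 to Glra2 (0.20), Cilp2 (0.28) and Rac3 (0.28). Of these 24 genes, 10 stayed among the first 3 of their member after quantile normalization.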

How the data were processed

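The authors' table holds 1 log2 RPKM value per gene and library; per the labels it is a log RPKM matrix, and the log base was read from whole-number steps in its low values. STAR 2.4.2a, BWA 0.7.13, MACS2 2.10, bcl2fastq and build mm9 are named in the submitters' processing notes. For the counter, annotation, gene filter and normalization, the step is not given in the sources used here. Members and lists were chosen with earlier results of these data known. A filter removed 56 genes whose mean over libraries was −2 or less, and 12102 remained, with all 8 members. Stages were compared by medians and by whether library ranges overlap, with no test. The planned genotype comparison was not run, since 10 RNA samples are labelled and no column could be matched to one. All 8 members were named, with the 3 nearest profiles each, up to 4 called genes per list and comparison, and Chd8. A gene that this rule takes from the cascade list is not reported here, while counts and medians over the list include it. Hes1 in adults and the ratios between members were added after their values were seen.

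Depth is unknown for 12 libraries, among them all 10 of e17.5. In the other 32, the size of 1 read could be fitted from genes at a shared floor, and relative depth ran from 0.62 to 1.84. At e17.5 only 17.6% to 25.0% of the low values lay on steps of whole reads, where at least 50% was asked for. The settings of this fit were changed after the Neurog1 read counts had been seen, because steps a factor of 2 apart scored alike in some libraries, and 3 settings were tried. The reported one takes the largest step scoring near the best, with a tolerance of 0.04 of a step. Reads were counted only where within 0.15 of a whole number. The values at low levels hold an unstated prior count, so folds of low genes are understated. The ChIP-seq peak list and the planned protein comparison were not used here. Analysis used Python 3.11.15, pandas 2.3.3 and numpy 2.4.6.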

Additional observations from a re-analysis of the deposited data

Results flagged for a closer look

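In 32 sets of 1 gene at 1 stage (P0, with 11 libraries, was not searched), 6 had a library far from the rest by Dixon's gap test, where chance gives about 1 in 20, or 1.6. The 8 genes share the libraries of a stage, so the sets are not independent and the excess over 1.6 counts the same libraries repeatedly. Adult library 1 was high for Neurog2 (1.67, the next at −1.41) and for Insm1 (3.14, the next at 2.06). The e17.5 library 6 was low for Neurog2 (3.07, the next at 3.70), Neurod2 (6.23, the next at 6.97) and Neurod6 (7.42, the next at 8.43). The e17.5 library 1 was high for Eomes (5.17, the next at 4.61). The marker values of the first 2 libraries stand with the results above.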

How the results depend on the processing

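Counts of called members stayed within 1.5 times under median centring, quantile normalization, a floor of −1 log2 RPKM and no filter on low values. Under quantile normalization Eomes was no longer called lower at e17.5 than at e14.5. With 1 library left out at a time, the counts ran from 3 to 4 higher and stayed at 2 lower for e14.5 against e12.5, from 0 to 2 higher and 5 lower for e17.5 against e14.5, 0 higher and 0 to 1 lower for P0 against e17.5, and 0 higher and 4 to 6 lower for adults against P0. The last rests on adult library 1 (6 without it) and on P0 library 5, without which Eomes was called lower. The e17.5 column names carry 2 series of sample numbers, a split chosen after the data were seen; with libraries 1 to 5 alone, 2 members were called higher than at e14.5 and P0 had 1 called lower. P0 against e14.5 directly gave 5 lower, where 23.1% of all genes were. Of 772 single values recomputed (member differences, nearest-profile distances and Neurog1 reads), 762 stayed within the largest SD of the stages compared, kept the nearest gene among the first 3, or stayed within 1.5 times. Most of the 772 left out 1 library, which can move a stage median only a little, so this count is a weak check. Neurog1 moved most, to −4.96 at e17.5 under quantile normalization and −3.37 with the floor; in adults against P0 it was 2.68 and 0. The step settings tried first gave medians of 2 and 3 Neurog1 reads at P0 (up to 10 and 7) and of 7 and 8 in adults, against 2 and 7 as reported. No paired analysis was possible because the columns carry no replicate numbers that the labels explain. Depth limits Neurog1 after e17.5.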

Other observations

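The column names carry a digit, 1 or 2, that no label explains and from which no genotype is read here. Chd8 was lower in the libraries with 2 than in those with 1, with ranges apart, in 5 of 5 stages. Of 40 sets of 1 member at 1 stage, 1 had ranges apart by this digit. It was Neurod1 in adults, at 2.02, 2.14 and 2.35 log2 RPKM with digit 2 and 2.48, 2.98 and 3.32 with digit 1, where 23.8% of all genes had ranges apart. That share was 2.56% at e12.5, 0.80% at e14.5, 6.89% at e17.5 and 0.56% at P0. At P0 all 8 members had the lower median with digit 2, by differences (digit 2 minus digit 1) of −0.67 to −0.17 with overlapping ranges, where 49.7% of all genes had the lower median with digit 2. In adults 7 of 8 did, where 49.3% of all genes did. At e12.5, e14.5 and e17.5 it was 2, 2 and 6 of 8, where 54.2%, 46.5% and 47.9% of all genes did. The 8 members share the libraries of a stage, so these counts are not of independent genes. Adult library 1, which stands apart in its markers, carries digit 1. Neurog1, with the P0 difference of −0.17, was at 0 to 7 reads at that stage.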
